A study of Mus musculus with 12 samples.

Results

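10 genes that mark tumor macrophages or their functional states were followed through 12 MC38 tumors, out of 18211 mouse genes measured in each. They were chosen by name, with earlier results of these data known: Adgre1, Csf1r and Csf1 for macrophage identity and growth, Mrc1 and Cd163 for scavenger receptors, Arg1 and Nos2 for arginine use, and Trem2, Apoe and Spp1 for lipid-associated and matrix-associated states. All 10 passed the filter on low counts, which kept 13563 of the genes.

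Macrophages in a tumor descend from blood monocytes and from cells already resident in the tissue, and they depend on the growth factor CSF1, which tumor cells and stromal cells release and the receptor CSF1R on macrophages binds. Their state is often read along an axis. Activation by interferon gamma and bacterial products induces the nitric oxide synthase NOS2 and antigen presentation. Activation by IL-4 or wound signals, at the other end, induces arginase 1 and the mannose receptor MRC1. Both enzymes use arginine, and arginine depletion by ARG1 is known to restrain T cells. The haemoglobin scavenger receptor CD163 is a further marker of macrophages. A further state, marked by TREM2, APOE and osteopontin (SPP1), is known from lipid-laden and matrix-remodelling macrophages of many tumors. Several of these genes are not restricted to macrophages: Csf1, Apoe and Spp1 are also made by tumor cells and fibroblasts, and Arg1 and Nos2 by other myeloid cells.

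MC38, a colorectal adenocarcinoma line of the mouse, was grown under the skin of 5-week-old female C57BL/6 animals, which were split on day 7 into 4 groups, and 3 tumors per group were sequenced. CK mice received vehicle. PB-020, an inhibitor of the IGF-1 receptor, was given by gavage at 50 mg/kg per day. Anti-PD-1, the antibody RMP1-14, was injected into the abdomen at 200 μg per mouse on days 9, 12, 15 and 18 after the cells, and the PB-020/anti-PD-1 group received both treatments. No isotype antibody is named for the mice without anti-PD-1. Whole tumors were ground, so host and tumor RNA were measured together, and fewer macrophages cannot be told apart from less RNA per macrophage.

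Totals of expected counts were even, 16545394 to 17217035 per tumor. All 20 genes of a list of other macrophage identity markers exceeded 1 FPKM in every tumor, whereas 8 epithelial tumor markers summed to 0.38 to 1.44 FPKM and none exceeded 0.54 FPKM. A pair of tumors stood apart from the rest in markers of other cells. In anti-PD-1 tumor 1, 8 skeletal muscle genes summed to 469.4 FPKM, against 8.41 to 51.1 in the other 11 tumors. In CK tumor 3, 8 neutrophil genes summed to 406.5 FPKM, against 6.15 to 34.7 in the other 11. Anti-PD-1 tumor 1 was also the highest of the 12 tumors for 8 of the 10 members, all but Cd163 and Spp1, so results are given with and without these tumors where they differ. The 20 other macrophage identity genes (3800 FPKM) and 7 T cell genes (62.1 FPKM) also summed highest in anti-PD-1 tumor 1. The next highest was combination tumor 2, at 3218 and 48.9 FPKM. The share of muscle or neutrophil RNA in any result was not tested.

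In vehicle tumors the levels of the 10 genes spanned a wide range in FPKM, a unit corrected for gene length. Apoe, which encodes a lipid carrier of lipoproteins, was the highest at 496.5 ± 79.0 FPKM (SD, n = 3), above 99.2% of all genes. Spp1, which encodes a secreted ligand of integrins and CD44, followed at 366.4 ± 54.1 FPKM and Arg1 at 144.7 ± 28.8 FPKM. Csf1 stood at 50.6 ± 8.9 FPKM and its receptor gene Csf1r at 41.0 ± 3.8 FPKM, and their tumors overlapped. Mrc1 (28.0 ± 0.83 FPKM) and Trem2 (27.0 ± 0.74 FPKM) overlapped as well. Adgre1, which encodes the F4/80 antigen, reached 18.9 ± 5.0 FPKM and Nos2 9.02 ± 9.03 FPKM, and CK tumor 3 alone put Nos2 into the range of Adgre1. Cd163 was the lowest at 1.26 ± 0.17 FPKM, above 36.5% of all genes.

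**Figure D1:**
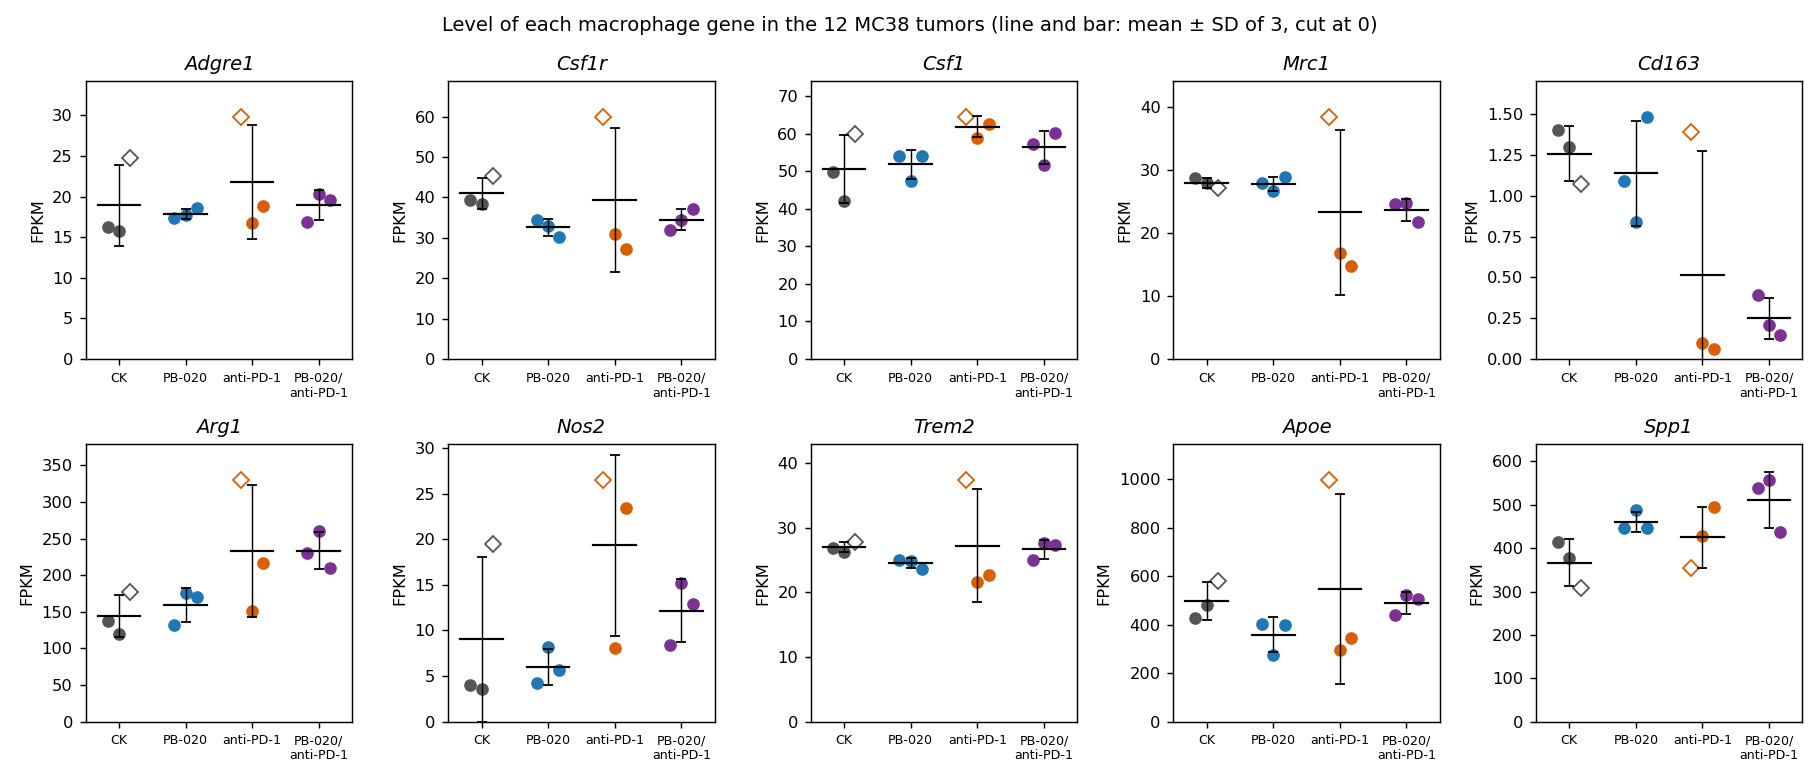
FPKM of the 10 genes in each tumor, by group; points are tumors, open diamonds are CK tumor 3 and anti-PD-1 tumor 1, and lines with bars are means ± SD of 3. Anti-PD-1 tumor 1 lies at the top of 8 panels, and the other antibody-treated tumors lie low for Cd163 (0.06 to 0.39 FPKM) and at 151.54 to 259.83 FPKM for Arg1.

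The sequence before the annotated start was read from RefSeq for GRCm38.p6 for 6 of the 10 genes (Mrc1, Csf1, Spp1, Cd163, Apoe and Trem2). The other members were not searched, which does not mean that RefSeq lacks an entry for each of them. The windows of 250 bases of Csf1 (chr3:107760470-107760719, minus strand), Spp1 (chr5:104434861-104435110, plus strand, the first of its start sites), Cd163 (chr6:124304401-124304650, plus strand) and Mrc1 (chr2:14229164-14229413, plus strand) are shown. Csf1 and Spp1 were called below with all tumors. Cd163 and Mrc1 were not called in that fit and passed when anti-PD-1 tumor 1 was left out. Arg1, which was also called, had no entry. They were searched on both strands for the letters GAGGAA of PU.1, the myeloid lineage factor, TTCNNNGAA of the interferon gamma activated site, TGANTCA of AP-1, GGANNTTCC of NF-kB and TATAAA of the TATA box, and each match is in capitals.
Csf1: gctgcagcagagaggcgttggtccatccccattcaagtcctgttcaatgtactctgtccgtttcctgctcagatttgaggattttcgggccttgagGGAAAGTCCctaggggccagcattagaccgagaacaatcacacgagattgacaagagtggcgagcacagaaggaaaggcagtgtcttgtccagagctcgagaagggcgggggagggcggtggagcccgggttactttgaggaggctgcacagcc
Spp1: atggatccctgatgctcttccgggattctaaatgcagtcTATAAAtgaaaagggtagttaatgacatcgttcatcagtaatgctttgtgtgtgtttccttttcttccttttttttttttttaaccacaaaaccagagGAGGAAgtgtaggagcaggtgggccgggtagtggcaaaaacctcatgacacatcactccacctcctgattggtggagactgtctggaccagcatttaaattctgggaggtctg
Cd163: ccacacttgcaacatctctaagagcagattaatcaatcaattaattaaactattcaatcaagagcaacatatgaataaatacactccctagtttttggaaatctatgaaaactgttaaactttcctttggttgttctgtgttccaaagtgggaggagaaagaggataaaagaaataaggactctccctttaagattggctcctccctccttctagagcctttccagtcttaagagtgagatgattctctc
Mrc1: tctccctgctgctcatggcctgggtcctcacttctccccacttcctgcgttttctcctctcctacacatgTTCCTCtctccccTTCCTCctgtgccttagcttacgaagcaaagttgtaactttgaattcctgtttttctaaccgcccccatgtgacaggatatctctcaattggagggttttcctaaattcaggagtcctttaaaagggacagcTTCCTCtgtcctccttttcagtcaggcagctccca
The Csf1 window held 1 match to the NF-kB letters, 154 to 146 bases before the start, on the reverse strand, and 3.59% of all 32851 RefSeq windows of the same length held such a match. The Spp1 window held 1 PU.1 match at 113 bases before the start and a TATAAA at 211. Mrc1 held 3 PU.1 matches, all on the reverse strand, the nearest ending 30 bases before the start. PU.1 letters were in 23.3% of all windows and TATAAA in 12.4%. The interferon gamma activated site (7.02% of windows) and AP-1 (6.75%) had no match in these 4 windows, and Cd163 had none of the 5 motifs. A match is a run of letters and not a measured binding site.

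The number of the 10 genes called in each comparison is given beside the share of all genes called. Whether it differs from that share was not tested. A change was called at a Benjamini-Hochberg adjusted p under 0.05 over all genes in edgeR's quasi-likelihood test. PB-020 alone changed 0 of 10 against CK, as it changed 0% of all genes. At an unadjusted p under 0.05 there was 1 member (Spp1), beside 5.46% of all genes, and DESeq2 and limma called 0 members. Anti-PD-1 alone changed 0 of 10, beside 8.26% of all genes. Csf1 and Arg1 had an unadjusted p under 0.05 there, beside 26.6% of all genes, and DESeq2 called Csf1 while limma called none. In the combination 1 of 10 changed, Spp1, which rose, where 17.9% of all genes passed, 8.35% raised and 9.6% lowered. The combination against anti-PD-1 gave 0 of 10 and 0% of all genes. At an unadjusted p under 0.05 there were 0 members, beside 7.26% of all genes, and DESeq2 and limma called 0.

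The design also allows the 6 tumors that received the antibody to be compared with the 6 that did not, as the mean of the group changes, which is called the anti-PD-1 main effect. Csf1 and Arg1 rose in it, 2 of 10 genes, beside 24.2% of all genes, 11.8% raised and 12.3% lowered. The members' median log2 change was 0.17, and that of all genes 0. The PB-020 main effect gave 0 of 10 and 0% of all genes. Spp1 was the 1 member with an unadjusted p under 0.05 in it, beside 10.9% of all genes. Its log2 change was 0.30 ± 0.10 (SE) with an adjusted p of 0.32, and DESeq2 called it. The interaction of the treatments gave 0 of 10 and 0% of all genes. At an unadjusted p under 0.05 there were 0 members, beside 2.29% of all genes, and DESeq2 and limma called 0. These comparisons share tumors and are not independent of each other.

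**Figure D2:**
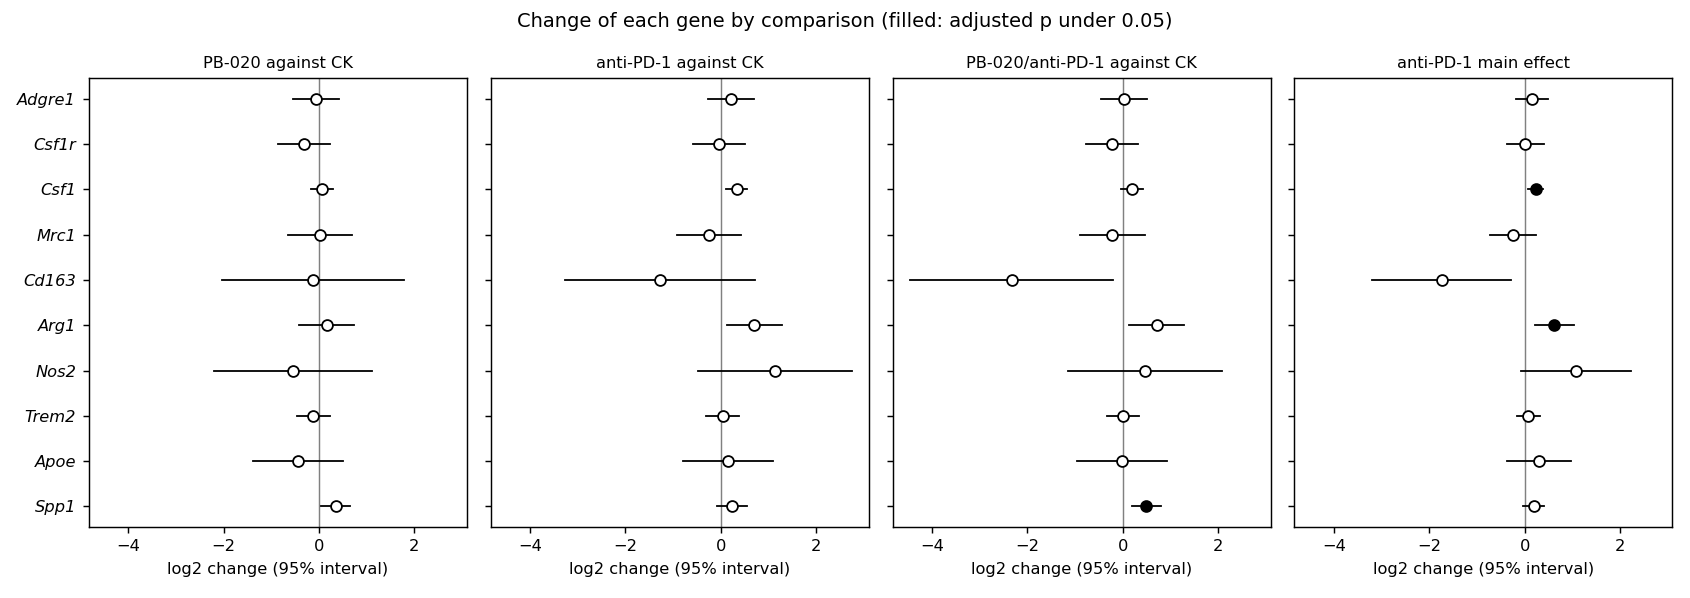
Log2 change of each gene in 4 comparisons, with 95% intervals on the horizontal axis; filled points passed an adjusted p of 0.05. The filled points are Spp1 in the combination (0.50), and Csf1 (0.23) and Arg1 (0.63) in the anti-PD-1 main effect, and the widest intervals belong to Cd163 and Nos2.

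No change was called for Adgre1, the general macrophage marker. It was 16.32, 15.76 and 24.71 FPKM in the CK tumors, 17.37, 17.77 and 18.58 with PB-020, 29.77, 16.76 and 18.82 with anti-PD-1, and 16.91, 20.37 and 19.61 with both. The groups overlapped throughout, and the highest tumors were CK tumor 3 and anti-PD-1 tumor 1. Its log2 change in the combination was 0.03 (95% interval -0.46 to 0.51, adjusted p = 0.95, edgeR), and in the anti-PD-1 main effect 0.15 (-0.19 to 0.49, adjusted p = 0.50). These intervals leave room for changes of about the size called for Csf1.

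Csf1r, which encodes the receptor on which macrophages depend, was 39.43, 38.26 and 45.38 FPKM in CK and 34.54, 32.98 and 30.2 with PB-020. With anti-PD-1 it was 59.85, 30.95 and 27.25, and with both 31.86, 34.44 and 37.08. Every PB-020 tumor and every combination tumor lay below the 3 CK tumors, but neither change passed the test, with a log2 change of -0.31 ± 0.24 (SE, adjusted p = 0.91) for PB-020 and -0.23 ± 0.24 (adjusted p = 0.54) for the combination. The share of all genes whose groups separate in this way, fully or nearly, was not counted, here or for any other gene or difference below. Without anti-PD-1 tumor 1, Csf1r passed in anti-PD-1 against CK (log2 change -0.47, adjusted p = 0.014), in the combination (-0.23, adjusted p = 0.047) and in the main effect (-0.19, adjusted p = 0.033). With CK tumor 3 left out as well, it passed in anti-PD-1 against CK (-0.40, adjusted p = 0.031) and neither in the combination (-0.16, adjusted p = 0.20) nor in the main effect (-0.15, adjusted p = 0.078).

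Csf1, the ligand, was 49.8, 42.11 and 59.92 FPKM in CK, 53.97, 47.48 and 54.18 with PB-020, 64.39, 58.81 and 62.55 with anti-PD-1, and 57.24, 51.67 and 60.14 with both. Of the 6 antibody-treated tumors 5 exceeded the median of the untreated 6 (51.9 FPKM), and 3 exceeded all of them. The main effect was a log2 rise of 0.23 ± 0.075 (SE, adjusted p = 0.037), which is 1.18-fold. DESeq2 called it (adjusted p = 0.016), and limma on log2(FPKM + 1) and on log2(FPKM + 0.1) did not (0.069 and 0.066). The edgeR call was retained in only 3 of 12 fits that each left out 1 tumor, those without CK tumor 3, anti-PD-1 tumor 2 or combination tumor 2, with log2 changes of 0.17 to 0.31 and adjusted p of 0.0061 to 0.084 over the 12. Without CK tumor 3, the tumor with high neutrophil genes, Csf1 passed also in anti-PD-1 against CK (0.47, adjusted p = 0.024) and in the combination (0.34, adjusted p = 0.036).

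Around these identity genes, 3 of 20 other macrophage identity genes rose in the main effect and 2 fell, against a background of 11.8% and 12.3%. Msr1, a scavenger receptor for modified lipoproteins, rose by a log2 of 0.45 ± 0.10 (SE, adjusted p = 0.012), Aif1, which encodes the actin-binding protein IBA1, by 0.65 ± 0.17 (adjusted p = 0.017), and the Fc receptor gene Fcgr1 by 0.46 ± 0.14 (adjusted p = 0.035). Cd33 (-0.43 ± 0.12, adjusted p = 0.018) and the fractalkine receptor gene Cx3cr1 (-0.52 ± 0.16, adjusted p = 0.036) fell. The complement genes C1qa, C1qb and C1qc, made by tissue macrophages, had log2 changes of 0.28, 0.17 and 0.15 and did not pass. The list's median was 0.21, and leaving out 1 tumor at a time gave 2 to 5 raised, the 5 without CK tumor 3 or anti-PD-1 tumor 2, and 0 to 2 lowered, the 0 without PB-020 tumor 1.

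Of 10 monocyte genes tested 2 rose and 2 fell, beside 11.8% and 12.3% of all genes. Ly6c2, which marks inflammatory monocytes and also some T cells, rose by 1.82 ± 0.38 (SE, adjusted p = 0.010) from 7.63 ± 5.2 FPKM in CK to 26.3 ± 14.2 with anti-PD-1 and 32.7 ± 14.7 with both. Plac8 rose by 1.22 ± 0.32 (adjusted p = 0.025). Vcan (-0.57 ± 0.083, adjusted p = 0.00085) and Fn1 (-0.47 ± 0.14, adjusted p = 0.029) fell, and both encode matrix proteins that fibroblasts also make. Ccr2, the receptor that brings monocytes into tissue, did not pass (0.23 ± 0.16). Leaving out 1 tumor gave 1 to 4 raised, the 4 without anti-PD-1 tumor 2 and 1 without PB-020 tumor 1 or 3, anti-PD-1 tumor 1 or combination tumor 2, and 1 to 2 lowered, with 1 in 7 of the 12 fits. Of 11 other genes of the CSF1 axis and myeloid growth factors 1 rose, beside 11.8% of all genes, namely Csf2rb2, a receptor chain for IL-3 (0.75 ± 0.21, adjusted p = 0.031), and the second CSF1R ligand, Il34, did not pass (-0.18 ± 0.071, adjusted p = 0.081). The number raised was 4 without CK tumor 3 or anti-PD-1 tumor 2, 2 without anti-PD-1 tumor 1, and 0 in 7 other fits that left out 1 tumor.

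The scavenger receptor genes Cd163 and Mrc1 were lower in 5 of the 6 antibody-treated tumors, but edgeR called neither with all tumors. Msr1, another scavenger receptor gene, rose in the main effect, as given above. Cd163, which encodes the receptor for haemoglobin bound to haptoglobin, was 1.4, 1.3 and 1.07 FPKM in CK, 1.09, 0.84 and 1.48 with PB-020, 1.39, 0.1 and 0.06 with anti-PD-1, and 0.39, 0.21 and 0.15 with both. Of the 6 antibody-treated tumors 5 lay below all 6 others, and anti-PD-1 tumor 1 lay among the vehicle tumors. The share of all genes that separate so was not counted. These levels rest on few reads, 61 to 107 expected counts in the 6 tumors without the antibody, 101 in anti-PD-1 tumor 1 and 4 to 28 in the other 5. The main effect was -1.74 ± 0.65 (SE) and missed the threshold (adjusted p = 0.081), as did the combination, -2.33 ± 0.95 (adjusted p = 0.12), and anti-PD-1 alone, -1.28 ± 0.88 (adjusted p = 0.39).

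Whether Cd163 passed depended on that tumor and on the fit. Without anti-PD-1 tumor 1 the main effect was -3.10 (adjusted p = 5.6e-05), where 21.8% of all genes passed. Anti-PD-1 against CK was then -3.99 (adjusted p = 0.0011; 4.57% of all genes) and the combination -2.33 (adjusted p = 3.9e-04; 24.4% of all genes). Leaving out any other tumor gave log2 changes of -1.99 to -1.48 in the main effect and no call. With all 12 tumors, DESeq2 (-1.75, adjusted p = 0.046) and limma on log2(FPKM + 1) (-0.72, adjusted p = 0.019) called it in the main effect. In the combination, limma on log2(FPKM + 1) (-0.85, adjusted p = 0.045) called it, and DESeq2 did not (adjusted p = 0.071). An edgeR fit of the compared groups alone, which holds no anti-PD-1 tumor, also called it (-2.33, adjusted p = 2.3e-04). Anti-PD-1 tumor 1 is outside that contrast, whose log2 change was -2.33 with and without it.

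Mrc1, the mannose receptor, was also lower in 5 of the 6 antibody-treated tumors. It was 28.79, 28.01 and 27.14 FPKM in CK, 27.89, 26.68 and 28.95 with PB-020, 38.4, 16.8 and 14.77 with anti-PD-1, and 24.63, 24.79 and 21.74 with both. The 6 tumors without antibody lay within 26.68 to 28.95 FPKM, 5 treated tumors lay below them and anti-PD-1 tumor 1 above them. With all tumors the main effect was -0.24 ± 0.21 (SE, adjusted p = 0.44). Without anti-PD-1 tumor 1 it was -0.52 (adjusted p = 1.2e-04), anti-PD-1 against CK -0.80 (adjusted p = 0.0011), and the combination against CK -0.22 (adjusted p = 0.041). The combination then lay above anti-PD-1 alone by 0.58 (adjusted p = 0.030), a contrast left with 2 anti-PD-1 tumors.

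**Figure D3:**
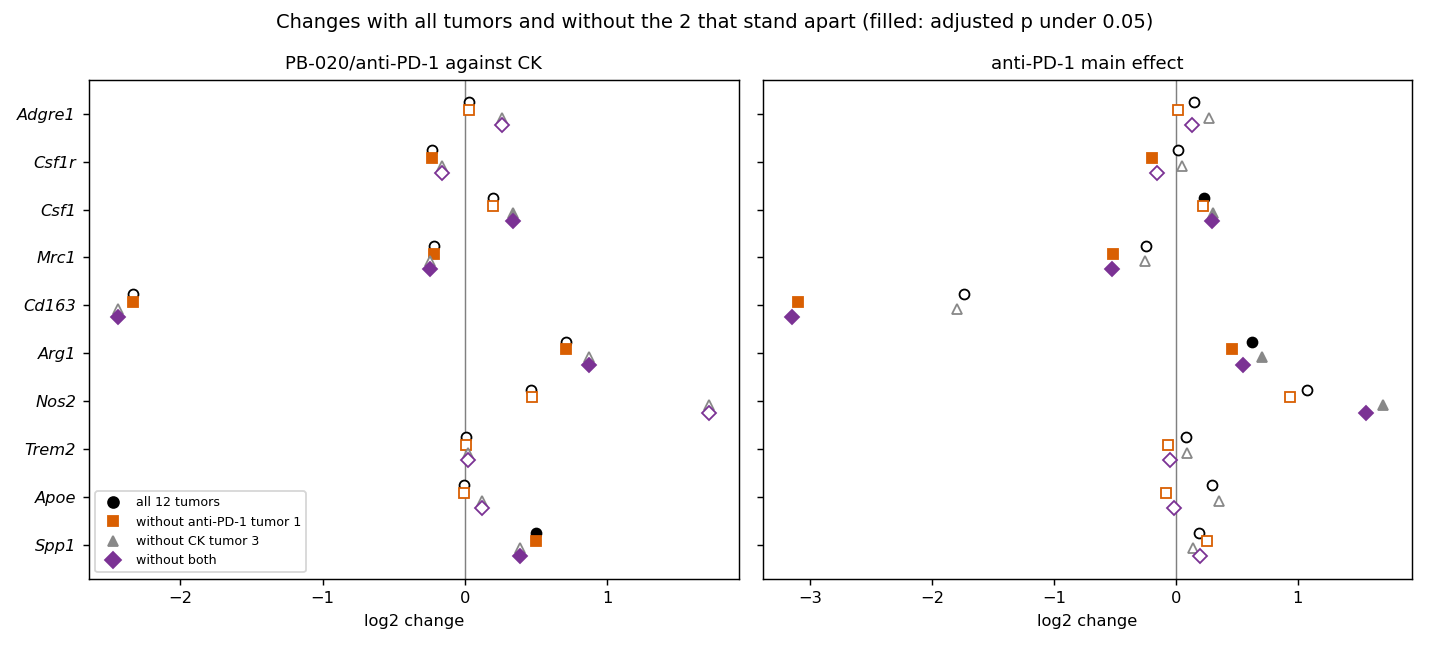
Log2 change of each gene in the combination against CK and in the anti-PD-1 main effect, with all 12 tumors, without anti-PD-1 tumor 1, without CK tumor 3 and without both; filled symbols passed an adjusted p of 0.05. Cd163 and Mrc1 are filled where anti-PD-1 tumor 1 is left out, at -3.10 and -0.52 in the main effect, and Nos2 where CK tumor 3 is left out, at 1.70.

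Other genes of resident and scavenger receptor macrophages fell in 5 of 12 cases and rose in 1, beside 12.3% and 11.8% of all genes, with a list median of -0.45. The 5 became 8 without anti-PD-1 tumor 1 and 3 without combination tumor 1. Vsig4, a complement receptor of resident macrophages, fell by 2.75 ± 0.35 on the log2 scale (SE, adjusted p = 0.00054), from 0.81 ± 0.18 FPKM in CK to 0.11 ± 0.052 with anti-PD-1 and 0.12 ± 0.052 with both. Lyve1, a hyaluronan receptor shared with lymphatic endothelium, fell by 2.18 ± 0.36 (adjusted p = 0.0032), and Cbr2, a carbonyl reductase, fell by 1.10 ± 0.17 (adjusted p = 0.0019). Cd209f (-2.38 ± 0.65, adjusted p = 0.025) and the transglutaminase gene F13a1 (-0.67 ± 0.17, adjusted p = 0.022) also fell, while the collectin Colec12 rose (0.35 ± 0.11, adjusted p = 0.038). Folr2 (-0.23 ± 0.26), Stab1 (0.00 ± 0.15) and Siglec1 (-0.07 ± 0.24) did not pass. Erythroid genes fell in 5 of 5 tested in the same comparison, and their summed level was 449.4 to 1556 FPKM without the antibody and 100.6 to 379.6 with it. The part of that difference in the result for the haemoglobin receptor gene was not tested.

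Arg1 rose with the antibody. It was 137.68, 120.01 and 176.38 FPKM in CK, 132.3, 175.81 and 170.22 with PB-020, 329.86, 151.54 and 216.26 with anti-PD-1, and 230.76, 259.83 and 209.78 with both. Of the 6 antibody-treated tumors 5 exceeded all 6 others, and the exception was anti-PD-1 tumor 2. The share of all genes that separate so was not counted. The main effect was a log2 rise of 0.63 ± 0.18 (SE, adjusted p = 0.036), or 1.55-fold. The single comparisons were 0.71 ± 0.26 for anti-PD-1 (adjusted p = 0.12) and 0.71 ± 0.26 for the combination (adjusted p = 0.088), and neither passed in edgeR with all tumors. The combination passed without anti-PD-1 tumor 1 (0.71, adjusted p = 0.027) and without CK tumor 3 as well (0.87, adjusted p = 0.016). With anti-PD-1 tumor 2 left out, both passed (adjusted p = 0.019 for anti-PD-1 and 0.028 for the combination). With all tumors, DESeq2 (adjusted p = 0.044) called Arg1 in the combination, as did a fit of the compared groups alone (0.011), and limma did not (0.083). The main-effect call was lost with no filter (adjusted p = 0.054) and with a replicate block (0.067), and DESeq2 (0.0075) and limma (0.040) made it. It was kept in 5 of 12 fits that left out 1 tumor each, those without CK tumor 3, PB-020 tumor 2, anti-PD-1 tumor 1 or 2, or combination tumor 3, with changes of 0.46 to 0.74 and adjusted p of 0.0044 to 0.080, and without anti-PD-1 tumor 1 it was 0.46 (adjusted p = 0.047).

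Nos2, the inducible nitric oxide synthase gene, was 4.05, 3.56 and 19.44 FPKM in CK, 4.24, 8.15 and 5.62 with PB-020, 26.48, 8.05 and 23.45 with anti-PD-1, and 8.36, 15.17 and 12.94 with both. The 6 antibody-treated tumors all exceeded the median of the others (4.93 FPKM), but CK tumor 3, with its high neutrophil genes, lay above 4 of them. The main effect was 1.07 ± 0.50 (SE, adjusted p = 0.16), with a 95% interval of -0.08 to 2.23. Without CK tumor 3 it was 1.70 and passed (adjusted p = 0.018). The 95% interval of the main effect holds both 0 and the change called for Arg1.

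Genes that act with these enzymes on arginine passed in 4 of 10 cases, all of them raised, beside 11.8% of all genes raised, and in 2 without CK tumor 2, PB-020 tumor 1, PB-020 tumor 2 or combination tumor 1. Ass1, which rebuilds arginine from citrulline, rose by 1.28 ± 0.19 (SE, adjusted p = 0.0025), from 15.7 ± 4.6 FPKM in CK to 38.6 ± 14.4 with anti-PD-1 and 38.7 ± 3.4 with both. Odc1, the first enzyme of polyamine synthesis from ornithine, rose by 0.34 ± 0.070 (adjusted p = 0.0050), the arginine carrier gene Slc7a2 by 1.01 ± 0.27 (adjusted p = 0.028), and the spermine synthase gene Sms by 0.23 ± 0.075 (adjusted p = 0.037). Arg2, the mitochondrial arginase, did not pass (0.46 ± 0.66).

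Genes of interferon and LPS activated macrophages passed in 12 of 20 cases, all of them raised, beside 11.8% of all genes raised, with a list median of 0.68 and 10 to 18 raised when 1 tumor was left out. Ido1, which degrades tryptophan, rose by 2.94 ± 0.30 (SE, adjusted p = 0.00047), from 0.80 ± 0.38 FPKM in CK to 9.24 ± 4.31 with anti-PD-1 and 8.26 ± 0.79 with both. Cxcl9, a chemokine for activated T cells, rose by 1.58 ± 0.25 (adjusted p = 0.0039), and the interferon response factor Irf1 by 0.79 ± 0.13 (adjusted p = 0.0029). The inflammatory cytokine genes Tnf (0.33 ± 0.36), Il1b (0.12 ± 0.87) and Il6 (-1.41 ± 0.99) were on the list and did not pass. Many of the raised genes are induced by interferon in other cell types too. Of 17 genes of IL-4 activated macrophages 1 rose, beside 11.8% of all genes, and 12 had a change above 0, with a median of 0.41. It was Pdcd1lg2, which encodes the second PD-1 ligand (2.14 ± 0.58, adjusted p = 0.029), and Retnla (1.43 ± 0.94), Mgl2 (-0.15 ± 0.22) and Ccl17 (-0.37 ± 0.22) did not pass. The number raised was 4 without anti-PD-1 tumor 2, 2 without anti-PD-1 tumor 3 or combination tumor 3, and 0 without CK tumor 2, any 1 of the PB-020 tumors or combination tumor 1. T cell genes rose in 6 of 7 cases and dendritic cell genes in 3 of 8 in this comparison, beside the same 11.8%. With 1 tumor left out, 6 to 7 T cell genes passed, and 1 to 2 dendritic cell genes except for 4 without anti-PD-1 tumor 3. T cell genes summed to 10.9 to 21.7 FPKM without the antibody and to 24.9 to 62.1 with it, and their part in the lists was not tested.

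Trem2, a lipid-sensing receptor, had the narrowest relative spread of the 10 genes in vehicle tumors (2.73% of its mean). It was 26.92, 26.3 and 27.77 FPKM in CK, 25.08, 24.79 and 23.64 with PB-020, 37.4, 21.63 and 22.73 with anti-PD-1, and 25.04, 27.7 and 27.32 with both. The 3 PB-020 tumors lay below the 3 CK tumors by a small margin (log2 change -0.12 ± 0.16, SE, adjusted p = 0.95), and the combination was level with CK (0.00, 95% interval -0.34 to 0.35). Anti-PD-1 against CK was 0.04 with all tumors and -0.25 (adjusted p = 0.11) without anti-PD-1 tumor 1, so its direction depended on that tumor.

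Apoe was 425.36, 482.61 and 581.46 FPKM in CK and 402.02, 274.7 and 399.81 with PB-020. It was 995.81, 297.11 and 344.34 FPKM with anti-PD-1 and 438.3, 521.6 and 506.84 with both. The PB-020 tumors lay below all CK tumors, with a log2 change of -0.45 ± 0.42 (SE, adjusted p = 0.93), and anti-PD-1 tumor 1 held 3.63 times the level of the lowest tumor. Its anti-PD-1 change moved from 0.15 to -0.60 (adjusted p = 0.088) without that tumor, and its change in the combination was -0.01 (95% interval -0.95 to 0.94).

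Spp1, the gene of osteopontin, was the member that passed the test in the combination. It was 414.53, 376.79 and 307.76 FPKM in CK, 445.79, 487.82 and 447.67 with PB-020, 354.34, 427.63 and 494.86 with anti-PD-1, and 539.31, 557.32 and 437.92 with both. All 3 combination tumors and all 3 PB-020 tumors exceeded the 3 CK tumors, and the anti-PD-1 tumors overlapped them. How often all genes separate so was not counted. The combination was higher by a log2 of 0.50 ± 0.14 (SE, adjusted p = 0.031), or 1.41-fold, PB-020 by 0.35 ± 0.14 (adjusted p = 0.87) and anti-PD-1 by 0.24 ± 0.14 (adjusted p = 0.31), and the combination against anti-PD-1 was 0.26 ± 0.14 (adjusted p = 0.73). The call held in 8 of 12 fits that left out 1 tumor each and was lost without CK tumor 2 (adjusted p = 0.088), CK tumor 3 (0.097), combination tumor 1 (0.10) or combination tumor 2 (0.12), with changes of 0.38 to 0.61. DESeq2 gave 0.50 (adjusted p = 0.0038) and limma 0.48 (adjusted p = 0.032).

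Of 20 genes that go with the TREM2 state 4 rose and 3 fell in the anti-PD-1 main effect, beside 11.8% and 12.3% of all genes, and the median was 0.08. Leaving out 1 tumor gave 2 to 6 raised and 2 to 3 lowered, with 2 raised in 8 of the 12 fits. Nr1h3, the sterol-sensing receptor LXR alpha, rose by 1.31 ± 0.28 (SE, adjusted p = 0.0059), while the lysosomal lipase gene Lipa (-0.27 ± 0.046, adjusted p = 0.0019) and the tetraspanin gene Cd9 (-0.32 ± 0.070, adjusted p = 0.0068) fell. Itgax, Apoc2 and Mmp12 were the other raised genes and Cd63 the other lowered one. Gpnmb (-0.01 ± 0.12) and Lpl (0.05 ± 0.42), which often accompany Trem2, did not pass. Among 12 receptors of SPP1 and APOE 3 rose and 3 fell, beside the same shares, and with 1 tumor left out 1 to 4 rose, the 1 without CK tumor 2, and 2 to 3 fell. Lrp8, an APOE receptor, rose by 0.66 ± 0.080 (adjusted p = 0.00047), and Cd44 (0.18 ± 0.055, adjusted p = 0.031) and Scarb1 (0.25 ± 0.068, adjusted p = 0.018) rose less. Lrp1 (-0.34 ± 0.069, adjusted p = 0.0044) and the integrin genes Itgb5 (-0.26 ± 0.055, adjusted p = 0.0058) and Itgb1 (-0.19 ± 0.064, adjusted p = 0.043) fell. Of 8 fibroblast genes 3 fell and 1 rose in the same comparison (3 rose without anti-PD-1 tumor 2), and their part was not tested.

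**Figure D4:**
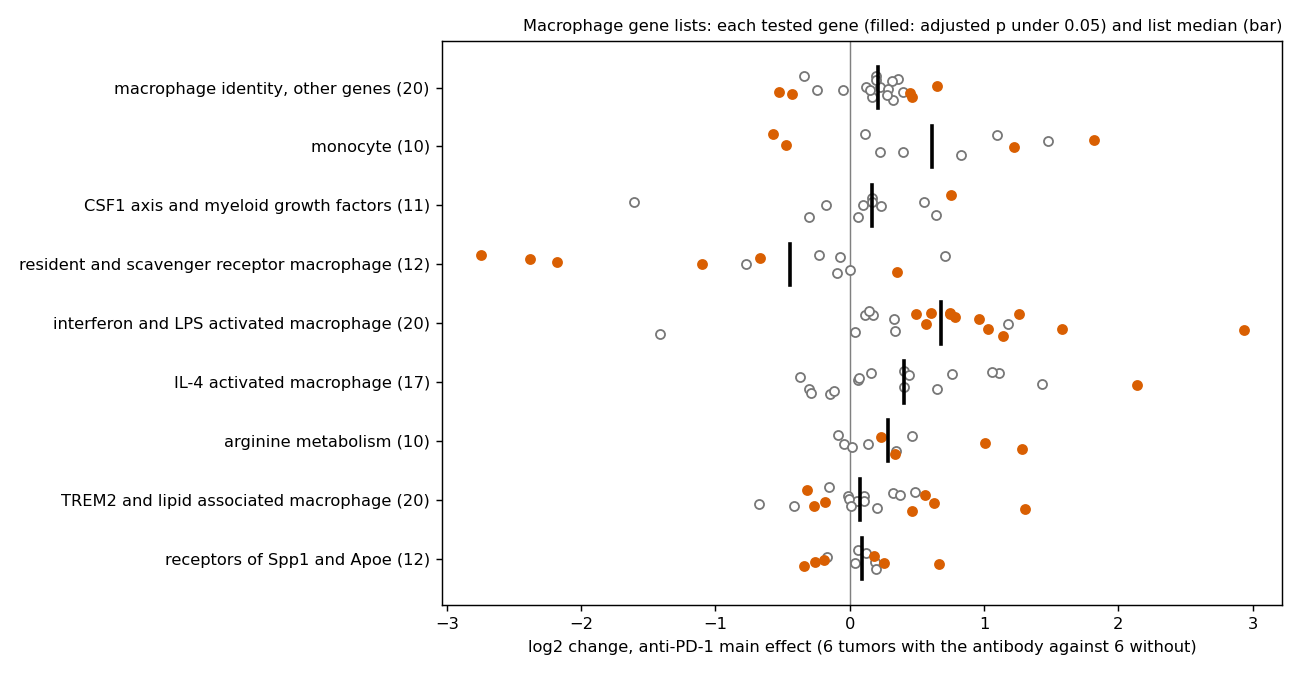
Log2 change in the anti-PD-1 main effect for every tested gene of 9 lists, number tested in brackets; filled points passed an adjusted p of 0.05 and bars are list medians. The interferon and LPS list holds its 12 filled points above 0, and the resident and scavenger receptor list holds 5 below 0 and 1 above.

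Set against Adgre1 within each tumor, which removes a shared change in macrophage RNA as far as Adgre1 follows it, the members moved unequally. The difference in log2 CPM between Arg1 and Adgre1 was 1.75 ± 0.13 (SD, n = 3) in CK, 1.95 ± 0.20 with PB-020, 2.20 ± 0.18 with anti-PD-1 and 2.42 ± 0.18 with both. All 6 antibody-treated tumors exceeded the 3 CK tumors in it, anti-PD-1 tumor 1 included at 2.29, but PB-020 tumors 2 (2.11) and 3 (2.02) exceeded anti-PD-1 tumor 2 (1.99). Cd163 minus Adgre1 was -3.36 ± 0.55 in CK, -3.48 ± 0.37 with PB-020, -5.94 ± 1.82 with anti-PD-1 and -5.72 ± 0.76 with both, and anti-PD-1 tumor 1 (-3.89) lay in the range of CK. Mrc1 minus Adgre1 was 1.36 ± 0.40, 1.41 ± 0.046, 0.78 ± 0.37 and 1.09 ± 0.20 in the same order. Csf1r minus Adgre1 was 1.37 ± 0.24, 1.09 ± 0.14, 1.035 ± 0.25 and 1.08 ± 0.091 in that order. CK tumor 3 (1.10) lay among the treated tumors in it. Trem2 minus Adgre1 stayed between -1.34 and -1.13 in the group means.

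The difference between Arg1 and Nos2 was 2.86 ± 1.10 in log2 CPM (SD, n = 3) in CK, 3.17 ± 0.29 with PB-020, 2.10 ± 0.52 with anti-PD-1 and 2.70 ± 0.42 with both. The groups overlapped, and CK tumor 3 had the lowest value of all 12 (1.59). These differences carry no test and are given as values.

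**Figure D5:**
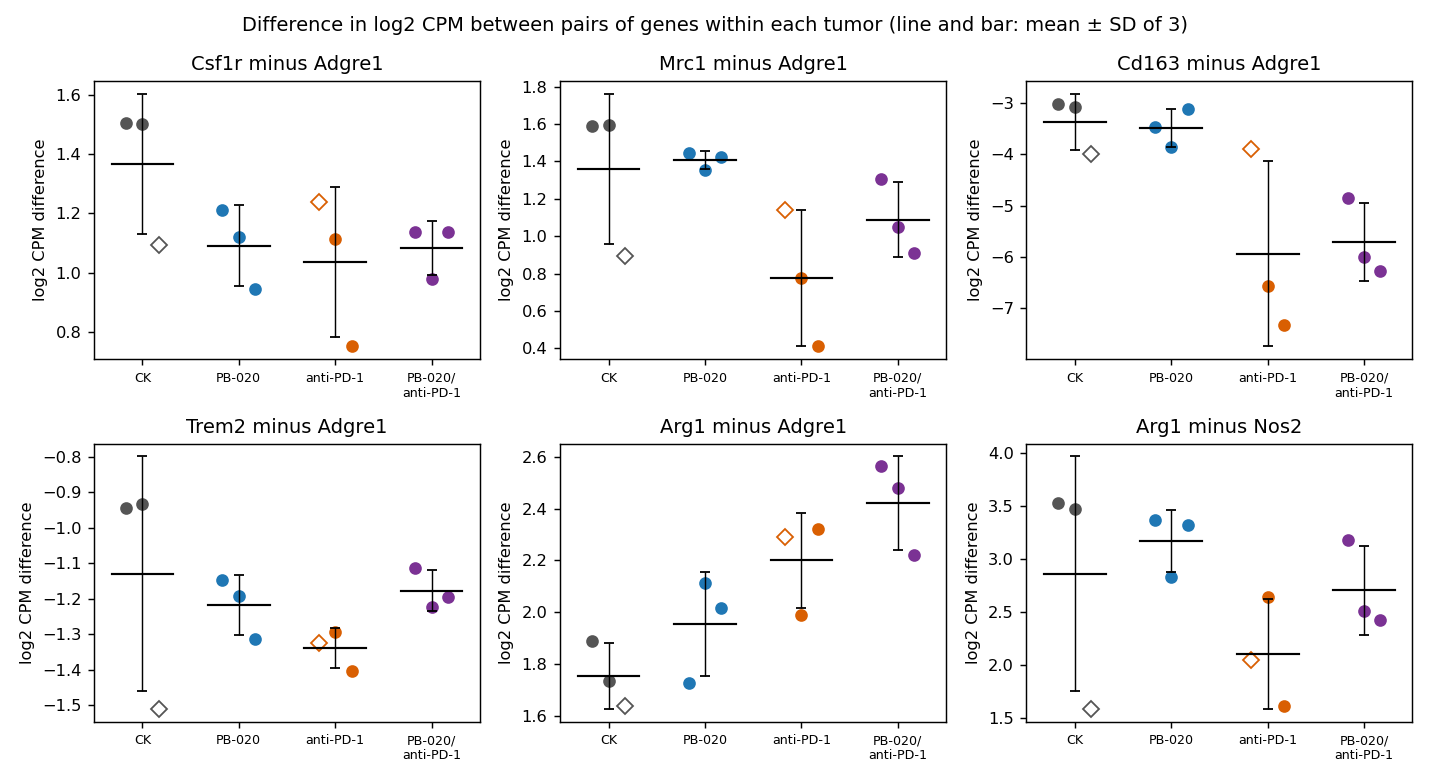
Difference in log2 CPM between pairs of genes in each tumor, by group; open diamonds are CK tumor 3 and anti-PD-1 tumor 1, and lines with bars are means ± SD of 3. Arg1 minus Adgre1 lies higher in all 6 antibody-treated tumors (group means 2.20 and 2.42) than in CK (1.75), and Cd163 minus Adgre1 lies lower in 5 of them.

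The gene whose log2 CPM ran closest to each member over the 12 tumors is given as a description, since the tumors share treatment groups and the 2 that stood apart weigh on every pair. Cd163 ran with Cd209f (Pearson r 0.95), Mrc1 with Lyl1 (0.94), Csf1 with Pim1 (0.96) and Nos2 with Pfkfb3 (0.98). Arg1 ran with Bst1 (0.97), Adgre1 with Dram1 (0.96), Csf1r with Tlr5 (0.96), Trem2 with Tcn2 (0.96), Apoe with Ctsf (0.97) and Spp1 with Tceal9 (0.96). Cd209f is itself on the resident macrophage list, and no other of these nearest genes was on a list used here.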

How the data were processed

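RNA of 12 MC38 tumors was sequenced by the authors as pairs of 150 bases, aligned with Bowtie2 and quantified with RSEM. The submitters' processing notes also list HISAT and the build GRCm38.p6. The methods name mm10 or hg19, and the annotation and tool versions are not given in the sources used here. The authors deposited RSEM expected counts (not normalized, 91.0% whole), FPKM values (per gene length and library total) and TPM values (not used here). Columns of group averages by the authors were left aside. Gene numbers matched RefSeq of GRCm38.p6 for 18091 of 18211 genes (99.3%).

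Expected counts were rounded, filtered with filterByExpr (minimum count 10, 13563 genes left), scaled by TMM and fitted with edgeR 4.0.16 in R 4.3.3 (robust quasi-likelihood, 4 group means, all 12 libraries), and tests were two-sided with Benjamini-Hochberg adjustment over all genes. SE and 95% intervals come from that fit, and log2 CPM used a prior count of 2. The code was tested on simulated data. Totals of 16545394 to 17217035 expected counts per library leave large counting error only in low genes such as Cd163. Each library is labelled as a tumor of its own, and whether any share an animal is not stated, so p-values measure the spread between these tumors.

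Groups came from the sample labels. The members, the lists and the rule were chosen with earlier results of these data known. From each list up to 3 genes with the smallest p among those called in the anti-PD-1 main effect were named, and for each member the first of the 3 genes of highest Pearson r. Other listed genes were named after their values were seen. Alternatives were DESeq2 1.42.0, limma 3.58.1 on log2(FPKM + 1) and log2(FPKM + 0.1), no filter, at least 50 counts in every library, library size alone, DESeq2 size factors, a replicate block, only the groups compared, each library left out, and a fold over 1.5 with unadjusted p under 0.05. Leaving out both tumors that stand apart was chosen after seeing the data.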

Additional observations from a re-analysis of the deposited data

How the results depend on the processing

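Leaving out 1 tumor in turn gave 0 to 3 members called in anti-PD-1 against CK, 0 to 5 in the combination against CK, 0 to 1 in the combination against anti-PD-1 and 0 to 4 in the anti-PD-1 main effect, where 0.996% to 13.8%, 6.28% to 24.4%, 0% to 0.0146% and 15.2% to 26.8% of all genes passed. Without both tumors that stand apart these were 4, 5, 1 and 5, beside 3.37%, 20.6%, 0.0661% and 21.2% of all genes. DESeq2 called 1, 2, 0 and 3 (9.05%, 15.1%, 0.00552% and 18.7% of all genes) and, in the PB-020 main effect, 1 (0.364%). Limma on log2(FPKM + 1) called 2 in the combination (18.1%), the groups compared alone 3 (22.5%), and no filter 1 in the anti-PD-1 main effect (15.8%). A fold over 1.5 with unadjusted p under 0.05 gave 1 for anti-PD-1 (Arg1) and 2 for the combination (Cd163 and Arg1). In the anti-PD-1 main effect Cd163 and Arg1 met it, and Csf1, at 1.18-fold, did not. The share of all genes that met both limits was not counted. An unadjusted p under 0.05 alone was reached by 26.6%, 33.9% and 37.9% of all genes in these comparisons. Same-numbered tumors did not deviate together in every pair (correlations -0.21 to 0.29), and differently numbered ones ranged from -0.22 to 0.36. The numbers were not treated as pairs in the main fit, though these correlations cannot exclude a pairing. The replicate block called 1 member (Csf1) in anti-PD-1, 1 in the combination (Spp1) and 2 in the main effect (Csf1 and Cd163). These stood beside 6.41%, 14.8% and 20% of all genes.

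Some log2 changes turned sign, and the cause was not tested beyond the tumors named. Not all of them were near 0, as Nos2 with PB-020 was -0.55 with all tumors. Over fits without 1 tumor, PB-020 against CK ran from -0.18 to 0.16 for Adgre1, -0.062 to 0.19 for Csf1, -0.020 to 0.042 for Mrc1, -0.93 to 0.69 for Nos2 and -0.37 to 0.044 for Cd163. Anti-PD-1 against CK ran from -0.059 to 0.45 for Adgre1, -0.47 to 0.14 for Csf1r, -0.25 to 0.17 for Trem2 and -0.60 to 0.43 for Apoe. The combination ran from -0.089 to 0.26 for Adgre1, -0.029 to 0.049 for Trem2 and -0.095 to 0.12 for Apoe, and against anti-PD-1 from -0.19 to 0.58 for Mrc1. The main effect ran from -0.19 to 0.11 for Csf1r, -0.063 to 0.15 for Trem2 and -0.081 to 0.44 for Apoe. Without both tumors, PB-020 gave 0.16 for Adgre1, -0.020 for Mrc1 and 0.69 for Nos2, anti-PD-1 -0.24 for Trem2 and -0.48 for Apoe, the combination 0.12 for Apoe, and the main effect -0.15 for Csf1r, -0.052 for Trem2 and -0.015 for Apoe. Limma on log2(FPKM + 1) and on log2(FPKM + 0.1) gave -0.0073 and -0.0076 for Mrc1 with PB-020, -0.030 and -0.032 for Trem2 and -0.0756 and -0.0761 for Apoe with anti-PD-1, -0.0171 and -0.0177 for Trem2 in the combination, and -0.031 and -0.033 for Csf1r in the main effect. Library size alone gave -0.0081 for Mrc1 with PB-020 and -0.015 for Trem2 in the combination, where Apoe was 0.0033 under the strict filter and 0.0006 with the replicate block. Cd163 did not pass the strict filter. None of the listed genes named by the rule turned sign in the main effect, and 57 of 743 of their values under the alternatives lost the call.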
